A study of Mus musculus with 12 samples.

Results

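The kidneys of mice that received busulfan and then alginate oligosaccharides were compared with the kidneys of mice that received the oligosaccharides alone. The comparison takes 6 of the 12 RNA sequencing libraries of the series, 3 for each group, chosen by the group that the sample titles give, and covers all 14428 of 19261 genes that had enough reads to be tested. The busulfan plus AOS group had 1 dose of busulfan at 40 mg/kg followed by alginate oligosaccharides (AOS) at 10 mg/kg over 5 weeks, and the AOS group had the same AOS course with no busulfan. The other 6 libraries were a busulfan group with the single 40 mg/kg dose and no AOS, and a control group with neither. The strain is written IRC and the tissue Cells in the labels, while the protocol names kidney, and neither the age nor the sex of the mice is given in the sources used here. The labels do not say whether the 3 samples of a group are from different mice, and the p-values cover only the spread among those samples, which may be technical.

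Busulfan is a bifunctional alkylating agent used to empty the bone marrow before transplantation, and it joins DNA bases within and between strands. Cells answer such lesions mainly through p53, a transcription factor that is held low by the ubiquitin ligase Mdm2, is stabilised after DNA damage, and switches on genes that stop the cell cycle, repair DNA or prepare apoptosis. Alginate oligosaccharides are short chains of uronic acids cut from the seaweed polymer alginate. The question here was which kidney transcripts differed with busulfan when both groups had AOS.

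The libraries were of kidney: the 35 proximal tubule markers summed to 77611 to 84807 CPM (counts per 1e6 reads of the library) in busulfan plus AOS and 75683 to 85482 CPM in AOS. Library totals were 13875942 to 14532720 estimated reads with busulfan plus AOS and 14210507 to 14393144 with AOS, and with 0 reads a gene could still be at 0.206 to 0.216 CPM, by counting error only. The busulfan plus AOS libraries differed among themselves. Replicate 3 carried transcripts of liver, with the 29 hepatocyte markers summing to 28833 CPM, against 350 and 161 CPM in replicates 1 and 2 and 203 to 680 CPM with AOS. Replicate 1 was high in immediate early and heat shock genes, and replicates 2 and 3 were apart from every other library of the comparison in circadian clock genes, as described further below. Among the libraries without AOS, busulfan replicate 3 held adrenal transcripts, at 12558 CPM over 17 markers against 57.4 to 70.2 CPM in the other 11 libraries. In whole tissue a lower level can mean fewer cells of a type or less RNA per cell, and these cannot be told apart.

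Busulfan plus AOS against AOS gave 10 genes under an adjusted p of 0.05 (quasi-likelihood test of edgeR, Benjamini-Hochberg adjusted), which is 0.0693% of the genes tested, 9 higher (0.0624%) and 1 lower (0.00693%). Ccng1, Eda2r, Phlda3 and Plk2 are known targets of p53, and Inka2 is one in human cells. A further gene, Mgmt, takes alkyl groups off guanine, and whether it acts on busulfan lesions was not tested. In every one of the 10 genes the busulfan plus AOS libraries and the AOS libraries did not overlap. Over all genes 8.49% were higher and 8.7% lower without overlap. The 10 genes were chosen by low p in these libraries, so the lack of overlap adds no support. An unadjusted p under 0.05 was reached by 1321 genes, 9.16% of those tested, 750 higher (5.2%) and 571 lower (3.96%). DESeq2 called 82 genes (0.558%), all 10 among them. The median log2 fold change of all genes was 0.00, and 51.0% were higher.

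Ccng1 encodes cyclin G1, a p53 target that brings a phosphatase to Mdm2. It measured 623, 579 and 623 normalized CPM in busulfan plus AOS, against 289, 269 and 263 CPM in AOS. Every busulfan plus AOS library was far above the AOS libraries, a 2.22-fold level and a log2 fold change of 1.15 ± 0.09 (SE) at an adjusted p of 0.0016 by edgeR. Per length it was the most abundant of the 10 genes in both groups, at 182 FPKM with busulfan plus AOS and 83.0 FPKM with AOS (scaled by gene length and library size, the authors' values averaged over 3 libraries each). Phlda3, a small membrane-binding protein that competes with the kinase Akt for lipids, measured 12, 9.20 and 6.62 CPM in busulfan plus AOS, against 0.986, 0.959 and 0.830 CPM in AOS. It rose by 3.32 ± 0.34 on the log2 scale, the greatest rise of the 10, at an adjusted p of 0.0068. Eda2r, the ectodysplasin A2 receptor, which belongs to the tumour necrosis factor receptors, measured 10.0, 6.72 and 7.13 CPM in busulfan plus AOS, against 1.06, 0.890 and 0.623 CPM in AOS, and rose by 3.21 ± 0.33 at the same adjusted p. For both genes the AOS libraries lay close to 1 CPM, so their folds of 9.96 and 9.22 carry the counting error of few reads.

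Plk2, a polo-like kinase that p53 induces, measured 25.2, 30.1 and 28.3 CPM in busulfan plus AOS, against 10.8, 9.79 and 7.26 CPM in AOS, a log2 fold change of 1.59 ± 0.21 and an adjusted p of 0.026. Inka2, an inhibitor of the kinase Pak4, measured 5.33, 5.24 and 5.02 CPM in busulfan plus AOS, against 0.493, 0.685 and 1.18 CPM in AOS. The busulfan plus AOS libraries had an SD of 0.158 CPM, and the log2 fold change was 2.71 ± 0.38 at an adjusted p of 0.031. Mgmt, the methyltransferase that takes alkyl groups off guanine and is used up in doing so, measured 8.79, 9.41 and 10.8 CPM in busulfan plus AOS, against 4.23, 3.36 and 2.97 CPM in AOS. It rose by 1.46 ± 0.18 at an adjusted p of 0.023.

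The other calls are genes of traffic, lipid signalling and chromatin. Exoc4, a subunit of the exocyst that tethers secretory vesicles to the plasma membrane, measured 51.4, 55.8 and 61.2 CPM in busulfan plus AOS, against 31.5, 30.8 and 33.1 CPM in AOS, a log2 fold change of 0.82 ± 0.09 at an adjusted p of 0.0078. Plcd4, a phospholipase C that cleaves membrane phosphoinositides, measured 7.20, 4.18 and 6.77 CPM in busulfan plus AOS, against 1.69, 1.23 and 0.761 CPM in AOS, and rose by 2.29 ± 0.31 at an adjusted p of 0.030. Tpcn1, a cation channel of endosomes and lysosomes, measured 152, 178 and 156 CPM in busulfan plus AOS, against 98.5, 90.5 and 101 CPM in AOS, and rose by 0.74 ± 0.09 at an adjusted p of 0.021. Asxl3, a partner of the histone deubiquitinase Bap1, was the 1 call that fell. It measured 5.61, 4.95 and 5.17 CPM in busulfan plus AOS, against 10.9, 9.31 and 11 CPM in AOS, a log2 fold change of -0.99 ± 0.13 at an adjusted p of 0.026.

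**Figure D1:**
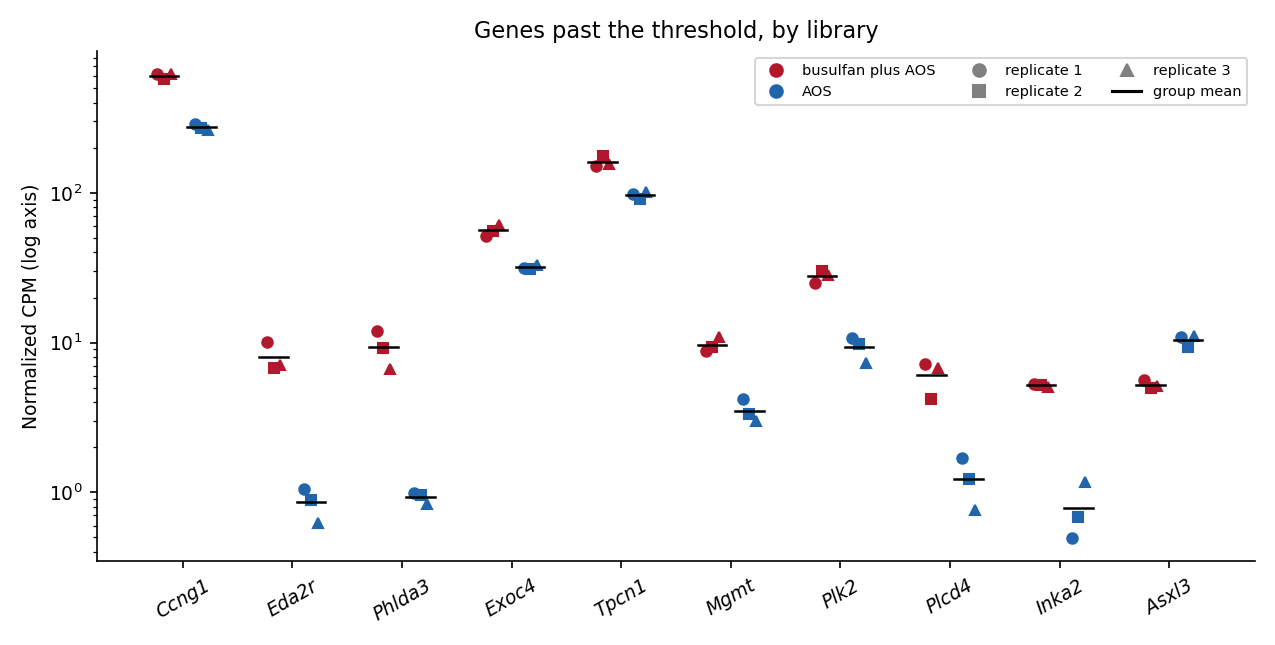
Normalized CPM on a log axis for the 10 genes past the threshold, with busulfan plus AOS (red) left of AOS (blue), 1 symbol for each replicate and a line at the group mean (n = 3). No gene has a library of either group inside the range of the other, and Asxl3 is the 1 gene with busulfan plus AOS below AOS.

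The sizes of these changes varied little with the libraries used, and the calls varied more. With each of the 6 libraries left out in turn, the log2 fold change stayed between 1.12 and 1.19 for Ccng1, 3.00 and 3.38 for Eda2r, 3.08 and 3.51 for Phlda3, and 0.75 and 0.88 for Exoc4. Ccng1 was called in all 6 of these settings. Eda2r, Phlda3 and Exoc4 were called in 3, losing the call without AOS replicate 1, 2 or 3, at adjusted p of up to 0.094. Plk2, Mgmt, Tpcn1, Asxl3 and Plcd4 were called in 1 and Inka2 in 0, with adjusted p of up to 0.164 for Plk2 and Mgmt, 0.161 for Tpcn1, 0.162 for Asxl3, 0.243 for Plcd4 and 0.289 for Inka2. Without replicate 3 of busulfan plus AOS, the library with liver transcripts, 5 genes were called, 4 of them among the 10. Without that library and the adrenal library, Ccng1, Phlda3, Eda2r, Exoc4 and Inka2 were still called, among 6 genes.

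By the RefSeq annotation of GRCm38.p6 (mm10), the build that the submitters' processing notes name, all 10 genes are protein-coding. Ccng1 lies at chr11:40748552-40755309, Eda2r at chrX:97333837-97377234, Phlda3 at chr1:135766085-135769134, Exoc4 at chr6:33249090-33973979, Tpcn1 at chr5:120534157-120588678, Mgmt at chr7:136894463-137128193, Plk2 at chr13:110395044-110400844, Plcd4 at chr1:74541975-74565977 and Inka2 at chr3:105704599-105720842. The positions cover introns and exons. Counts cover whole genes, with reads shared between transcripts by the authors' counting.

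The 250 bases before the transcription start were searched for the p53 consensus decamer, the 10-base half-site that p53 binds in pairs. The consensus is its own reverse complement, so 1 search reads both strands. Of the 10 genes 8 were in the RefSeq promoter table and 3 of these held the decamer, while 8.2% of the 27025 genes in the table hold it. The 3 windows are shown since they are the stretches of called genes with such a match, read 5′ to 3′ on the gene's own strand, with the decamer in capitals. The Ccng1 window is chr11:40755287-40755536 on the minus strand, that of Exoc4 is chr6:33248878-33249127 on the plus strand, and that of Inka2 is chr3:105705208-105705457 on the plus strand, before the second of its 2 listed starts.
Ccng1: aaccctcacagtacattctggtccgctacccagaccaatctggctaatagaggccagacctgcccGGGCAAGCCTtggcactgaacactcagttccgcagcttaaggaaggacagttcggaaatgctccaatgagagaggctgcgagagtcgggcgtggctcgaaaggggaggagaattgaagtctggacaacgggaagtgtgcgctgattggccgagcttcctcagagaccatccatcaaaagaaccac
Exoc4: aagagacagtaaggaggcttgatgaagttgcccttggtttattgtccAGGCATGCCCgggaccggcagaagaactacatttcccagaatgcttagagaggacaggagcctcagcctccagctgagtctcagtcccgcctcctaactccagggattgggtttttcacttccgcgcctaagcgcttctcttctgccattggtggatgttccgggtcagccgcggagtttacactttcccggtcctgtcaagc
Inka2: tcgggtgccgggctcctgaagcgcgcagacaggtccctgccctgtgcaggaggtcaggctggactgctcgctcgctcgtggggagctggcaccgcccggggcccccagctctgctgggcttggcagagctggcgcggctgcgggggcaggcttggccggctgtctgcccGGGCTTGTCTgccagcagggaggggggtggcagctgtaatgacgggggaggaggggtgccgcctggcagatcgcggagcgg
The decamer begins 185 bases before the start in Ccng1, 203 in Exoc4 and 81 in Inka2. Distances are from the start listed for each window. All 3 windows overlap the gene positions given above, so these starts lie inside the outer bounds of the genes. The search took exact matches alone. In Ccng1 the 10 bases directly before the capitals differ from the consensus at 1 position, so they were not marked. A match of letters, to a half-site or to a pair, is not evidence of binding. The windows of Eda2r, Phlda3, Mgmt, Plk2 and Plcd4 do not hold these letters, which says nothing on sites elsewhere in those genes.

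Just short of the threshold were more targets of p53, among other genes. Zmat3, an RNA-binding protein, measured 30.7, 24.8 and 25.0 CPM in busulfan plus AOS, against 17.1, 14.7 and 17.1 CPM in AOS, a log2 fold change of 0.72 ± 0.11 at an adjusted p of 0.056. Cdkn1a, the cyclin-dependent kinase inhibitor p21, measured 23.7, 9.91 and 14 CPM in busulfan plus AOS, against 4.23, 4.79 and 3.18 CPM in AOS, a log2 fold change of 1.96 ± 0.32. Its replicates with busulfan plus AOS spread by more than 2-fold without reaching the AOS range. Cdkn1a, the nuclease Aen at 0.78 ± 0.12 and the apoptosis suppressor Ddias at 2.08 ± 0.33 all had an adjusted p of 0.073. So did Rsbn1 at 1.66 ± 0.27, which was not higher in busulfan against control (-0.14 ± 0.25). DESeq2 called all of these. Dscaml1, a neural cell adhesion molecule, was at the edge of detection, with 12, 15 and 19 reads in busulfan plus AOS, against 1, 0 and 0 reads in AOS. The ratio of the pooled reads was 46.4, with a 95% counting interval of 7.92 to 1872. A gene model named BGIG10090_46974 measured 1.94, 1.2 and 1.16 CPM in busulfan plus AOS, against 0.282, 0.137 and 0.0692 CPM in AOS, at an adjusted p of 0.056. It is not paired with a gene name in the files.

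The lower genes by the same rule, apart from Asxl3, were not called. Of all genes 8.7% were lower without overlap. The lowest value was that of Slitrk6, a transmembrane protein with leucine-rich repeats known from neurons and the inner ear, with 0.554, 0.425 and 0.146 CPM in busulfan plus AOS, against 15.4, 16.5 and 7.61 CPM in AOS. Its log2 fold change was -5.09 ± 0.87 at an adjusted p of 0.096, and DESeq2 called it. In the libraries without AOS, Slitrk6 measured 0.829, 0.769 and 0.841 CPM with busulfan, against 4.65, 6.79 and 0.364 CPM in control. Every busulfan library of either kind was thus below 1 CPM, and so was 1 control library. Ptpn22, a phosphatase known for restraining antigen receptor signalling in lymphocytes, measured 5.88, 28.6 and 10.9 CPM in busulfan plus AOS, against 105, 86.6 and 67.7 CPM in AOS, a log2 fold change of -2.51 ± 0.54 at an adjusted p of 0.286. Without AOS it measured 8.56, 9.30 and 6.79 CPM with busulfan, against 56.4, 59.7 and 20.2 CPM in control, again without overlap. The markers of B, T and NK cells, in which Ptpn22 is known to act, summed to 75.8, 42.7 and 41.2 CPM in busulfan plus AOS and 58.9, 56.1 and 44.1 CPM in AOS over 17 genes, and their part in the Ptpn22 difference was not tested.

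The other lower genes had smaller differences. Met, the receptor for hepatocyte growth factor in the tubule, measured 199, 178 and 172 CPM in busulfan plus AOS, against 288, 297 and 258 CPM in AOS, a log2 fold change of -0.62 ± 0.13 at an adjusted p of 0.286. Jade3, a subunit of histone acetyltransferase complexes, stood at -0.72 ± 0.12, 4430402I18Rik at -0.82 ± 0.14, D930016D06Rik at -0.78 ± 0.16 and Tmppe at -0.70 ± 0.15. Glcci1 stood at -0.52 ± 0.10, the synaptotagmin Syt14 at -0.43 ± 0.09 and Prrc2c at -0.36 ± 0.07. Apart from Asxl3, the adjusted p of the lower genes named here was 0.096 to 0.303.

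**Figure D2:**
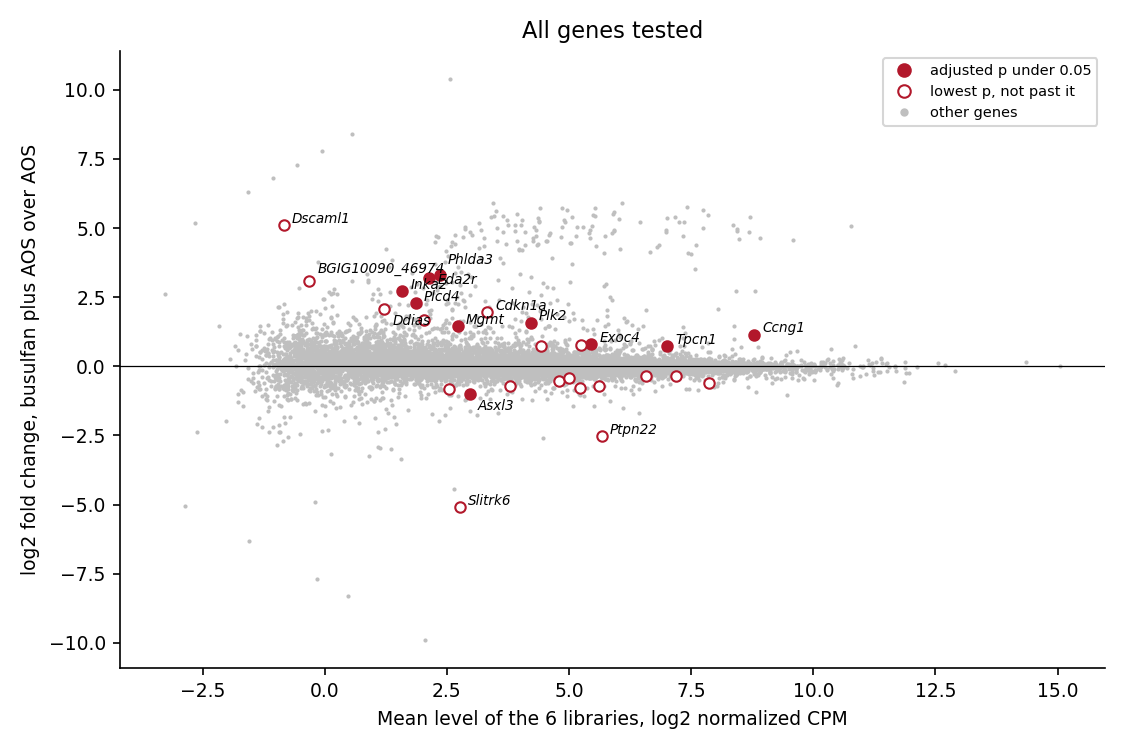
Log2 fold change of busulfan plus AOS over AOS against the mean level of the 6 libraries (log2 normalized CPM) for all genes tested, except 1 gene with no reads in these libraries. Filled circles are the 10 called genes and open circles the others of lowest p with groups that do not overlap. The hepatocyte markers of replicate 3 of busulfan plus AOS, among the grey points, have a median of 4.92.

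The busulfan and control libraries are separate samples from these 6, but they shared in the estimate of spread that ranked the genes, so the comparison is not independent of the choice. Of the 16 higher genes named by the rule, 14 had the same sign in busulfan against control and the same 14 had groups that did not overlap, where 5.72% of all genes did so in that direction. The exceptions were Tpcn1 and Rsbn1. The gene model BGIG10090_46974 counts among the 14, but stood at 0.40 ± 0.48 without AOS, against 3.08 ± 0.47 with it. Its levels without AOS were 0.345, 0.420 and 0.301 CPM with busulfan, against 0.291, 0.289 and 0.218 CPM in control. Of the 12 lower genes, 9 had the same sign and 3 did not overlap the same way (Asxl3, Ptpn22 and Jade3), against 5.63% of all genes. At an adjusted p of 0.05 busulfan against control called 6 genes (0.0416%). Ccng1 stood at 1.15 ± 0.09 with AOS in both groups and at 1.12 ± 0.09 without it, Exoc4 at 0.82 ± 0.09 and 0.81 ± 0.09, and Phlda3 at 3.32 ± 0.34 and 3.52 ± 0.35. The differences between these effects were 0.03 ± 0.13, 0.00 ± 0.12 and -0.20 ± 0.47 on the log2 scale. Mgmt stood at 1.46 ± 0.18 with AOS and 0.89 ± 0.18 without it, and Plk2 at 1.59 ± 0.21 and 1.00 ± 0.21. Other genes were smaller with AOS. Eda2r stood at 3.21 ± 0.33 with AOS and 3.98 ± 0.35 without it, a difference of -0.775 ± 0.462. Cdkn1a, not called with AOS, stood at 1.96 ± 0.32 and 2.69 ± 0.32, a difference of -0.725 ± 0.438.

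In Tpcn1 and Rsbn1 the AOS libraries stood below those of the other groups. Tpcn1 measured 146, 135 and 138 CPM with busulfan, against 164, 134 and 158 CPM in control, so the AOS libraries at 90.5 to 101 CPM were below all 9 others. Rsbn1, known from the nuclei of round spermatids, measured 7.13, 5.80 and 5.82 CPM in busulfan plus AOS, against 2.68, 1.78 and 1.45 CPM in AOS. It measured 7.18, 5.39 and 8.29 CPM with busulfan, against 6.83, 6.5 and 9.68 CPM in control. The interaction term, which tests whether the busulfan effect differs with and without AOS, was 0.86 ± 0.13 for Tpcn1 and 1.80 ± 0.37 for Rsbn1. The interaction called 0 genes in edgeR's quasi-likelihood test, 850 (5.89%) at an unadjusted p under 0.05, and 11 (0.0585%) in DESeq2. Of the 28 genes of lowest p without overlap, 12 had an unadjusted p under 0.05 for it, and the lowest adjusted p among them was 0.292. With replicate 1 of busulfan plus AOS left out, 1 gene passed in the interaction, the clock gene Arntl.

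**Figure D3:**
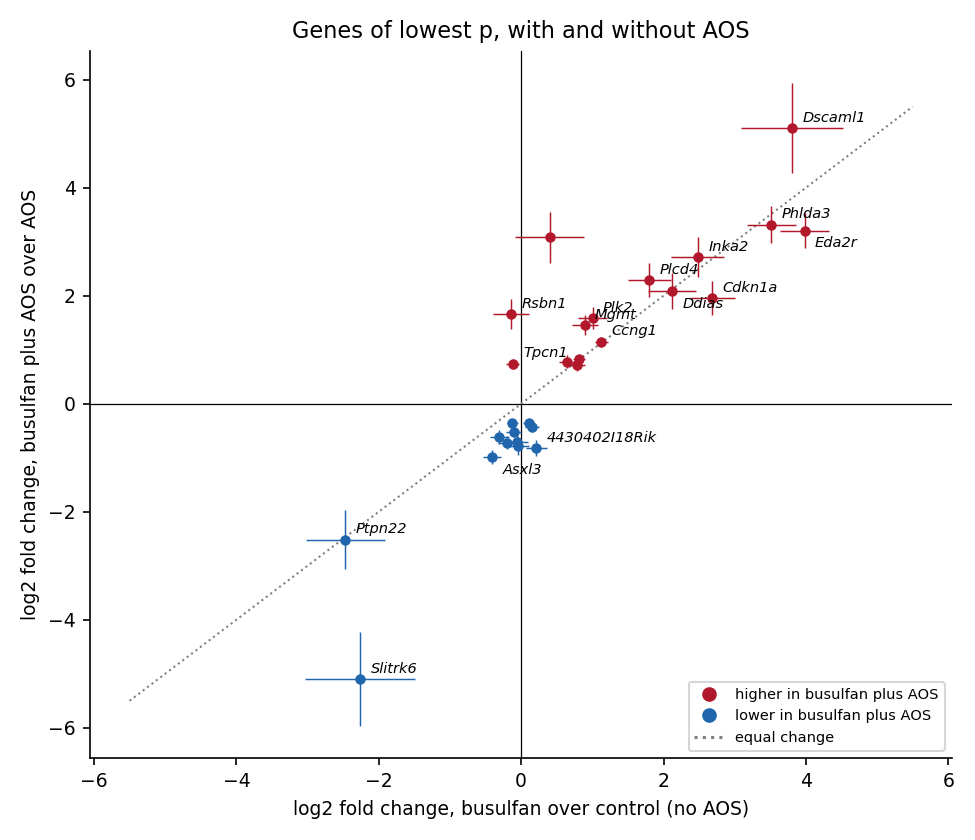
Log2 fold changes of the 28 genes of lowest p whose groups did not overlap, in busulfan plus AOS over AOS (vertical axis) and in busulfan over control (horizontal axis), with SE bars (n = 3 libraries a group). The dotted line marks equal change. Of the higher genes in red, Tpcn1 and Rsbn1 are those left of 0 on the horizontal axis, and of the lower genes in blue Ptpn22 at -2.47 and Slitrk6 at -2.26 lie farthest left.

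Gene lists describe more of the p53 pathway. They were chosen with earlier results of these data known, hold called genes and were not tested, so they are no separate support. Of 23 targets that act in arrest and DNA repair, 18 were higher and 3 of these passed (Ccng1, Phlda3 and Plk2), with a median log2 fold change of 0.26, against 0.00 for all genes. In 9 of the 23, all busulfan plus AOS libraries were above all AOS libraries, which holds for 8.49% of all genes. Of 17 targets that act in cell death, 15 were higher, 1 of them called (Eda2r), 8 without overlap and with a median of 0.46. The death receptor Tnfrsf10b measured 8.93, 5.80 and 5.53 CPM in busulfan plus AOS, against 1.62, 2.74 and 3.46 CPM in AOS, a log2 fold change of 1.37 ± 0.30 at an adjusted p of 0.286. Bax, which opens the outer mitochondrial membrane, stood at 0.50 ± 0.11 and the receptor Fas at 0.63 ± 0.23, neither past the threshold. Gtse1, a microtubule protein of late cell cycle, stood at 2.63 ± 0.59, with AOS libraries as low as 0.0692 CPM. With each busulfan plus AOS library left out, the medians were 0.25 to 0.30 for the first list and 0.41 to 0.47 for the second.

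Some genes taken here as p53 targets lay lower with busulfan plus AOS. Polh, the polymerase that copies past damaged bases, measured 6.16, 6.94 and 6.77 CPM in busulfan plus AOS, against 8.73, 8.90 and 8.51 CPM in AOS, a log2 fold change of -0.40 ± 0.16. Rrm2b, the p53-inducible subunit of ribonucleotide reductase, stood at -0.41 ± 0.15 and Gadd45g at -0.92 ± 0.37. These 3 were chosen after their values were seen, and their adjusted p was 0.476 to 0.501. Trp53 itself, which is regulated mostly as a protein, measured 24.2, 26.1 and 28.1 CPM in busulfan plus AOS, against 27.0, 29.5 and 24.8 CPM in AOS, at -0.05 ± 0.11. Mdm2 measured 78.9, 60.6 and 66.6 CPM in busulfan plus AOS, against 55.1, 54.1 and 57.8 CPM in AOS, a log2 fold change of 0.30 ± 0.09 at an adjusted p of 0.476. Of the 14 genes of p53 and its regulators 6 were higher, at a median of -0.03.

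Repair of alkylated and crosslinked DNA was not raised as a list. Of 28 genes 14 were higher and 14 lower with a median of -0.01 (-0.07 to 0.03 with each busulfan plus AOS library left out), and Mgmt was the 1 call. Fancg, a subunit of the Fanconi complex, measured 4.36, 4.53 and 4.66 CPM in busulfan plus AOS, against 2.96, 3.49 and 3.39 CPM in AOS, a log2 fold change of 0.46 ± 0.17. It did not pass, at an adjusted p of 0.476. Gdf15, a stress cytokine that p53 also induces, measured 29.4, 13.6 and 7.57 CPM in busulfan plus AOS, against 2.82, 2.94 and 5.6 CPM in AOS, a log2 fold change of 2.15 ± 0.46 at an adjusted p of 0.286.

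Proliferation genes were mostly higher without any call. Of 36, 32 were higher with a median of 0.71, and 16 did not overlap (44.4%, against 8.49% of all genes). Their summed level was 178, 211 and 182 CPM in busulfan plus AOS, against 164, 170 and 151 CPM in AOS. Cdc20, which activates the anaphase-promoting complex, measured 2.35, 3.96 and 3.13 CPM in busulfan plus AOS, against 0.986, 0.890 and 0.761 CPM in AOS, a log2 fold change of 1.83 ± 0.44 at an adjusted p of 0.353. The cyclin Ccnb1 stood at 1.71 ± 0.58, the spindle factor Tpx2 at 0.91 ± 0.27 and Mki67, the Ki-67 antigen, at 0.80 ± 0.39. In replicate 2 of busulfan plus AOS 10 of the 36 were more than 2-fold above the highest AOS library, against 2 and 1 in replicates 1 and 3.

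Of 40 matrix genes 37 were higher, 25 without overlap (62.5%, against 8.49% of all genes), at a median of 0.55 and with 0 calls. Mmp2, a gelatinase, measured 10.5, 11.7 and 10.0 CPM in busulfan plus AOS, against 3.38, 3.01 and 4.01 CPM in AOS, a log2 fold change of 1.63 ± 0.41 at an adjusted p of 0.408. Loxl1, which crosslinks elastin, stood at 0.88 ± 0.27, the proteoglycan Bgn at 0.61 ± 0.19 and the basement membrane collagen Col4a2 at 0.34 ± 0.10. The summed level of the 41 matrix genes in the table overlapped, with 5565, 5463 and 5009 CPM in busulfan plus AOS, against 4722, 4507 and 5752 CPM in AOS. All 20 fibroblast, pericyte and smooth muscle markers were higher, 9 without overlap (45%), at a median of 0.51, with Tagln, a smooth muscle actin-binding protein, at 0.84 ± 0.38 and Gli1, a hedgehog effector of perivascular cells, at 1.88 ± 0.66. Both lists kept their direction without each busulfan plus AOS library, at medians of 0.53 to 0.59 for matrix and 0.39 to 0.44 for the fibroblast list. In busulfan against control the medians were 1.12 and 1.02. Over 18 adipose markers the level was 825, 994 and 1964 CPM in busulfan plus AOS and 1249, 1131 and 954 CPM in AOS, highest in replicate 3 of busulfan plus AOS, and their part in these lists was not tested.

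Markers of tubular injury gave a mixed picture. Of 26, 20 were higher, 9 without overlap (34.6%, against 8.49% of all genes), at a median of 0.20. Havcr1, the kidney injury molecule of proximal tubules, measured 3.53, 4.39 and 4.88 CPM in busulfan plus AOS, against 4.3, 3.77 and 5.40 CPM in AOS, and Lcn2, neutrophil gelatinase-associated lipocalin, measured 1.38, 2.90 and 1.31 CPM against 1.13, 1.64 and 0.830 CPM. Both genes overlapped between the groups. Vcam1, the adhesion receptor of injured tubule and endothelium, measured 10.8, 9.62 and 12.5 CPM in busulfan plus AOS, against 4.93, 6.98 and 7.12 CPM in AOS, a log2 fold change of 0.79 ± 0.29 at an adjusted p of 0.476. Krt8, a keratin of simple epithelia, stood at 0.25 ± 0.09. The 2 highest values of the list, up to 5.75, belong to genes that are hepatocyte markers too. Of 17 NF-kB response genes 14 were higher, 6 without overlap (35.3%), with Tnfaip3, which dampens this response, at 0.60 ± 0.17 and Nfkb2 at 0.31 ± 0.13. Of 26 interferon-stimulated genes 11 were higher, with a median of -0.09 and with 0 of them without overlap upward. That median was 0.10 without replicate 1 of busulfan plus AOS and -0.52 without replicate 3.

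Ephx1, the microsomal epoxide hydrolase and a target of the antioxidant factor NRF2, measured 83.1, 64.7 and 107 CPM in busulfan plus AOS, against 24.7, 25.4 and 22.3 CPM in AOS. Its log2 fold change of 1.82 ± 0.35 had an adjusted p of 0.190, and DESeq2 and limma with voom called it. Of the 32 NRF2 and glutathione genes 22 were higher at a median of 0.17, and 3 did not overlap upward (9.38%, near the 8.49% of all genes). The median was 0.06 without replicate 3 of busulfan plus AOS and 0.08 without replicate 1. Hepatocytes express Ephx1 too, and among the busulfan plus AOS libraries its level was highest in replicate 3, which carried the liver transcripts. Without that replicate the log2 fold change of Ephx1 was 1.61 at an adjusted p of 0.475 by edgeR. In the libraries without AOS, Ephx1 measured 41.99, 72.2 and 131 CPM with busulfan, where the hepatocyte markers summed to 314, 184 and 361 CPM. The part of liver transcripts in the Ephx1 difference was not tested.

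Of 47 cytosolic ribosomal protein genes 42 were higher, 25 without overlap (53.2%, against 8.49% of all genes), at a median of 0.12, with Rps16 at 129, 129 and 119 CPM in busulfan plus AOS, against 106, 103 and 102 CPM in AOS. Of 39 nuclear-encoded respiratory chain genes 34 were higher, with a median of 0.07. Fatty acid oxidation genes were split, 13 of 28 higher at a median of -0.01. Ppara, the nuclear receptor that drives that pathway, measured 108, 120 and 117 CPM in busulfan plus AOS, against 83.0, 72.5 and 102 CPM in AOS, a log2 fold change of 0.42 ± 0.13. Neither Rps16 nor Ppara passed, at an adjusted p of 0.476 for each.

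No marker gene of the nephron passed the test. The median was 0.07 for 35 proximal tubule genes, -0.01 for 23 of the loop of Henle and distal tubule, -0.02 for 12 of principal cells and -0.15 for 15 of intercalated cells. With each busulfan plus AOS library left out these medians were 0.02 to 0.12, -0.08 to 0.05, -0.12 to 0.14 and -0.20 to -0.01 in the same order. Slc34a1, which takes phosphate back from the filtrate, measured 5623, 6899 and 6269 CPM in busulfan plus AOS, against 5792, 5480 and 6160 CPM in AOS. The sodium-proton exchanger Slc9a3 stood at 0.37 ± 0.12 and the gluconeogenic enzyme Pck1 at 0.61 ± 0.18, both without overlap and without a call (adjusted p of 0.476 for each). Of the 35 proximal tubule genes 22 were higher and 13 lower. Without overlap 3 were higher (8.57%, near the 8.49% of all genes) and 2 were lower. Podocyte genes had a median of 0.35, 12 of 15 higher and 4 without overlap (26.7%, against 8.49% of all genes), with Nphs1, nephrin, at 29.4, 19.5 and 21.5 CPM in busulfan plus AOS, against 13.6, 11.4 and 23.0 CPM in AOS. Replicate 3 of AOS was within the range of busulfan plus AOS for Nphs1. Endothelial genes had a median of 0.16, and 0.06 without replicate 1 of busulfan plus AOS. Macrophage genes had a median of 0.20, and -0.02 without replicate 3.

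**Figure D4:**
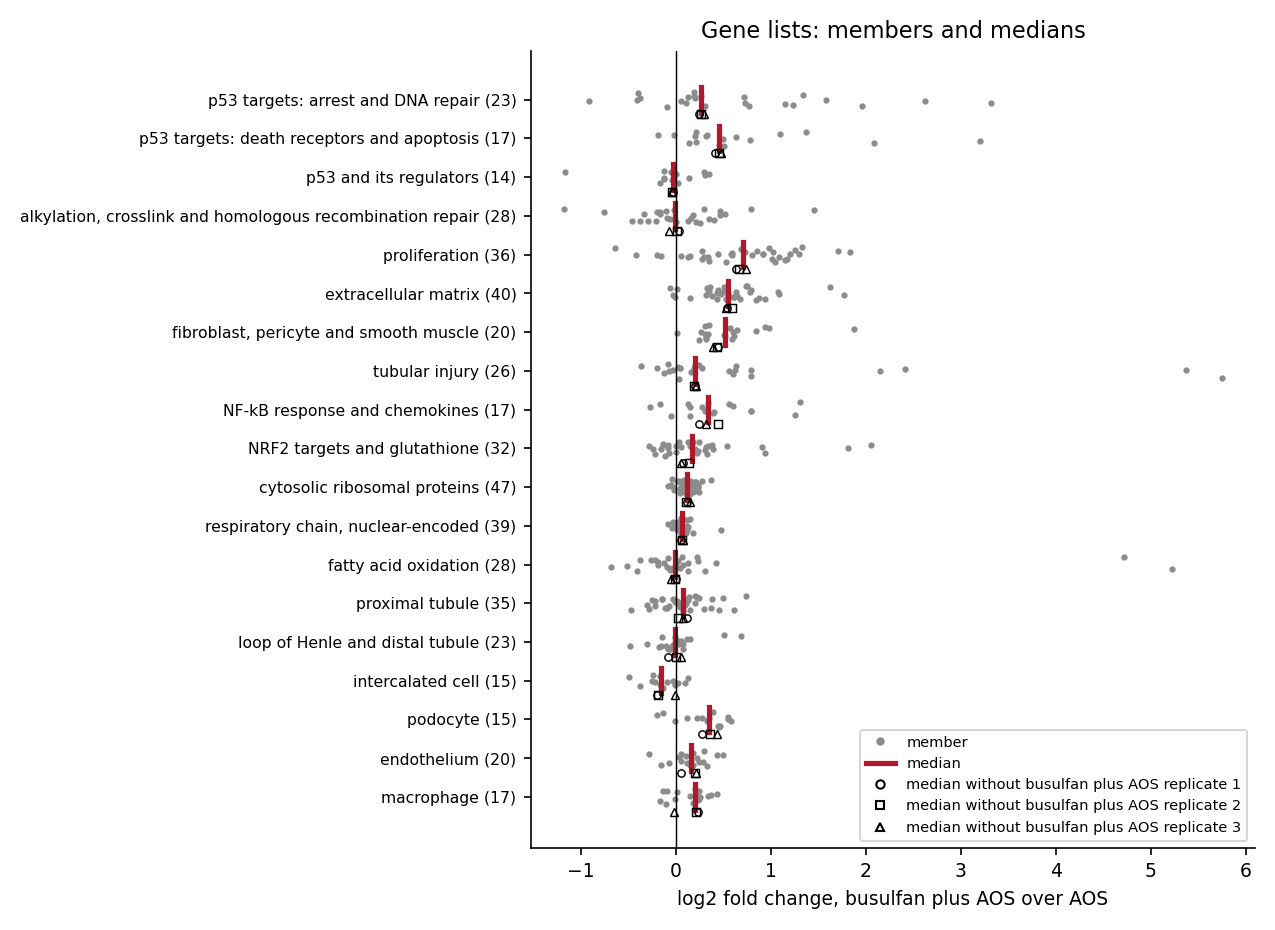
Log2 fold changes of busulfan plus AOS over AOS for the members of 19 gene lists (grey points, number tested in brackets), with the list's median in red and the median with each busulfan plus AOS library left out as open symbols. The vertical line is the median of all genes. Proliferation, matrix, fibroblast and p53 target lists lie right of it under each of these settings. So do the tubular injury, NF-kB, NRF2, ribosomal protein, respiratory chain, podocyte and endothelium lists. Some of these, such as the respiratory chain, lie near it, as do the proximal tubule and loop of Henle lists.

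Circadian clock genes separated the busulfan plus AOS libraries from each other. In the clock, Arntl and its partners Clock or Npas2 switch on the Per, Cry and Nr1d genes and outputs such as Dbp, which then feed back, so the sets peak at opposite times of day. Dbp measured 1.45, 114 and 89.0 CPM in replicates 1, 2 and 3 of busulfan plus AOS, against 3.38, 2.05 and 2.28 CPM in AOS. Arntl went the other way, at 44.2, 7.86 and 8.15 CPM in busulfan plus AOS, against 41.1, 40.7 and 45.2 CPM in AOS. Replicate 1 was thus at the AOS level and replicates 2 and 3 were far from it in both genes.

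The rest of the loop followed the same split. Ciart, a repressor of the clock, measured 1.80, 16.5 and 9.03 CPM in busulfan plus AOS, against 1.62, 1.10 and 0.899 CPM in AOS, and Per3 measured 3.81, 25.6 and 16.6 CPM against 3.45, 4.59 and 3.80 CPM. Nr1d2, a nuclear receptor that represses Arntl, measured 47.9, 177 and 179 CPM in busulfan plus AOS, against 43.4, 39.9 and 62.8 CPM in AOS. Npas2 measured 29.4, 6.44 and 7.28 CPM and Nfil3, a repressor opposed to Dbp, 39.2, 4.03 and 4.66 CPM in busulfan plus AOS, against 31.1 to 33.8 and 20.1 to 34.5 CPM in AOS. Arntl, Npas2 and Nfil3 were chosen after their values were seen. Of 21 clock genes, 6 lay more than 2-fold above and 4 more than 2-fold below the AOS range in replicate 2 (47.6%), 5 above and 4 below in replicate 3 (42.9%), and 1 above in replicate 1. Of all genes 2.43%, 2.43% and 4.59% lay outside it in replicates 1, 2 and 3.

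With all libraries no clock gene passed: Ciart had an adjusted p of 0.324, Dbp 0.476 and Arntl 0.588. Without replicate 1 of busulfan plus AOS the count of calls was 25, of which 5 were clock genes. In that setting Arntl fell by 2.41, Npas2 fell by 2.25 and Nfil3 fell by 2.76 on the log2 scale, and Ciart stood at 3.39, with adjusted p of 0.00078, 0.0073, 0.014 and 0.022. Busulfan replicate 3, which had no AOS, was also higher in Dbp and Nr1d2, at 16.5 and 103 CPM, than the other busulfan libraries (1.47 to 2.35 and 35.5 to 39.5 CPM) and control (1.53 to 3.56 and 38.7 to 49.6 CPM). The hour of collection is not given in the sources used here, and its part was not tested.

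Replicate 1 of busulfan plus AOS stood apart in early response and chaperone genes. Egr1, a transcription factor induced within minutes of a stimulus, measured 327, 30.2 and 21.0 CPM in busulfan plus AOS, against 6.55, 9.72 and 3.80 CPM in AOS. Junb measured 51.5, 15.9 and 15.9 CPM in busulfan plus AOS, against 8.24, 8.22 and 7.82 CPM in AOS, and Ier2 measured 22.6, 9.20 and 9.32 CPM against 6.41, 6.23 and 4.98 CPM. All 3 genes were above AOS in every library and highest in replicate 1, with adjusted p of 0.452 to 0.476. Of 21 immediate early genes 12 were more than 2-fold above the highest AOS library in replicate 1 and 2 in each of the others, where 1.25%, 1.07% and 3.52% of all genes were in replicates 1, 2 and 3. The median of the list was 0.82, and 0.32 without replicate 1.

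The stress-inducible chaperone Hspa1a measured 114, 6.09 and 2.04 CPM in busulfan plus AOS, against 7.25, 6.30 and 11.3 CPM in AOS, and its near-identical neighbour Hspa1b, whose reads the counting may share with it, 88.7, 7.71 and 3.13 CPM against 6.83, 7.12 and 7.68 CPM. Without replicate 1 both had negative log2 fold changes, of -1.03 and -0.41, and the median of 20 heat shock genes was -0.30 in place of 0.22. Herpud1, a gene of endoplasmic reticulum stress, measured 427, 235 and 214 CPM in busulfan plus AOS, against 159, 160 and 175 CPM in AOS, a log2 fold change of 0.83 ± 0.25 at an adjusted p of 0.476. The 24 genes of that list had a median of 0.11, and -0.09 without replicate 1.

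The liver transcripts of replicate 3 were equally bound to 1 library. Alb, serum albumin, measured 75.4, 22.0 and 10077 CPM in busulfan plus AOS, against 183, 50.3 and 66.9 CPM in AOS. All 27 hepatocyte markers tested were more than 2-fold above the highest AOS library in replicate 3, against 0 in replicates 1 and 2. The list's median was 4.92, and -0.52 without replicate 3, and none of the 27 was without overlap between the groups. The medians of the p53 target lists without that library were 0.30 and 0.47.

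**Figure D5:**
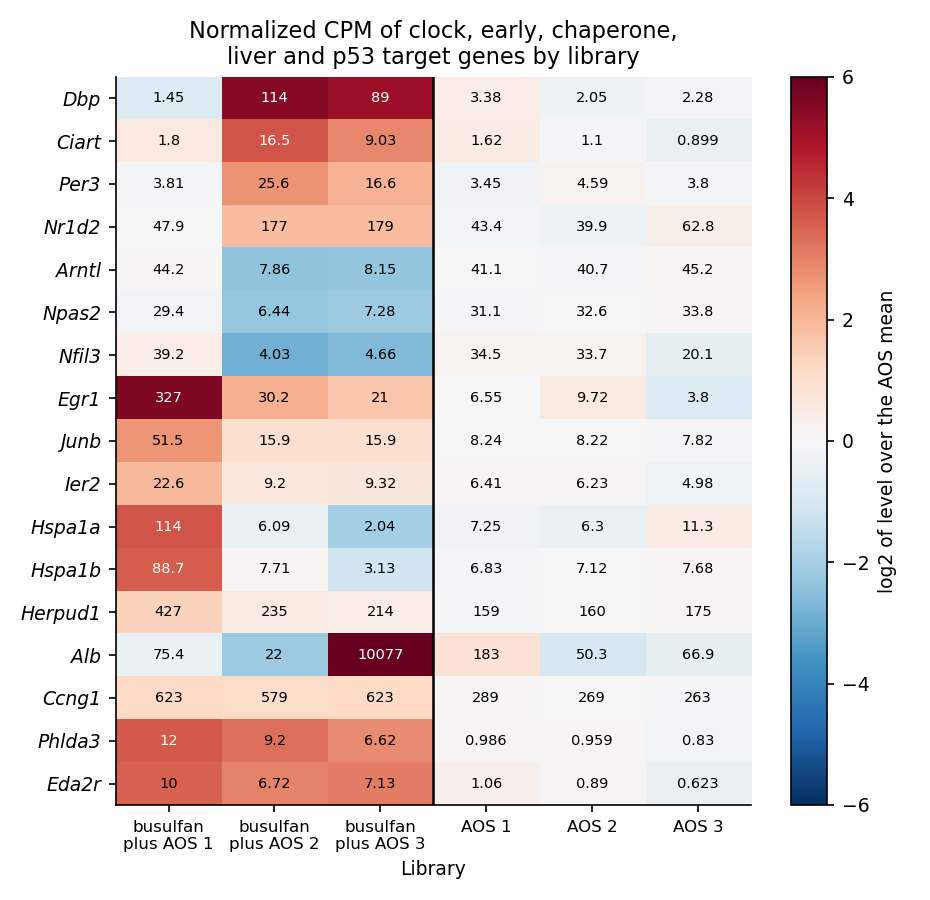
Normalized CPM (numbers) of clock, early response, chaperone, liver and p53 target genes in each library, busulfan plus AOS left of AOS, coloured by the log2 ratio to the AOS mean, which is the scale of the colour bar and is cut at 6. Clock genes set replicates 2 and 3 of busulfan plus AOS apart, Egr1 and the chaperones replicate 1 and Alb replicate 3. Ccng1, Phlda3 and Eda2r are above AOS in each of the 3.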

How the data were processed

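RNA from mouse kidney was sequenced in 12 libraries, and samples were grouped by their titles. The authors deposited 1 table with an estimated count per gene and library (expected counts, 76.8% to 78.8% of them whole within 0.005) and an expression value taken as FPKM, because its ratio to CPM, taken as the median over genes, differed between libraries by at most 0.375%, while single genes can differ more. Per the submitters' processing notes the build is mm10. The sources used here name no aligner, counter or strand setting, so genes that overlap, paralogs such as Hspa1a and Hspa1b and antisense genes are uncertain. Gene models with a BGIG identifier alone (971) held 1.82% of the reads. The deposited means of groups (8 columns) were not used.

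Rounded counts went into a quasi-likelihood model of edgeR 4.0.16 (R 4.3.3) over all 12 libraries, with TMM scaling, the filterByExpr filter and a mean for each of the 4 groups (8 residual degrees of freedom, biological coefficient of variation 26.8%). Tests were two-sided with Benjamini-Hochberg adjustment over all 14428 genes and a threshold of 0.05. Levels are normalized CPM, while sums over lists use CPM by library total alone. Library totals were 13875942 to 15329347. Intervals and the limit of 3 reads cover counting error only.

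Named genes were the calls, the 16 higher and 12 lower genes of lowest p among those without overlap and with a mean of at least 1 CPM, up to 4 genes of each list, and reference genes, and the text gives part of them. Some genes that the rule names are not reported here. The members and lists were chosen with earlier results of these data known. Lists were described by counts and medians and not tested. Alternatives were DESeq2 1.42.0, limma 3.58.1 on log2(FPKM + 1) and with voom and quality weights, relative log expression scaling, no filter, a filter at 5 CPM in 3 libraries, the 6 compared libraries alone, a replicate block, each library left out, and the hepatocyte and adrenal libraries left out. No pair of the 6 libraries agreed within sampling noise (chi-square per gene 5.98 to 111). Positions and promoters are from RefSeq, GRCm38.p6, in which 18164 of 18290 Entrez identifiers matched.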

Additional observations from a re-analysis of the deposited data

How the results depend on the processing

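The count of 10 genes was 82 with DESeq2 (all 10 among them), 29 with limma voom and quality weights, 4 under a replicate block, and 1 when the fit held no more than the 6 compared libraries. With 1 library left out it ranged from 1 to 25. It was 1 without AOS replicate 1, 2 or 3, 5 without busulfan plus AOS replicate 3, 7 without replicate 2 and 25 without replicate 1. Without the hepatocyte and the adrenal library it was 6. Other scaling, filters and limma on log2(FPKM + 1) gave 9 to 11. The interaction count of 0 was 11 with DESeq2 and ranged from 0 to 1 with a library left out, the 1 without busulfan plus AOS replicate 1, and it has no value with 6 libraries. Replicate numbers gave no sign of pairing: correlations of same-numbered libraries were -0.26, 0.14 and -0.20, and only number 2 matched best with its own number. With 3 libraries a group that differ among themselves, such a check cannot exclude pairing. Of 1151 single-gene values under the alternatives, 1037 kept direction and call. Most of the 78 genes were not called to begin with, and for these, staying uncalled counts as kept. The 62 values that lost a call all belong to the 10 called genes, and 44 values of other genes gained one. The sign turned for 5 genes, whose log2 fold changes with 1 library left out ranged from -0.184 to 0.0774 for Havcr1 (0.0428 without busulfan plus AOS replicate 1), -0.118 to 0.0101 for Trp53 (highest without AOS replicate 2), -1.03 to 2.857 for Hspa1a and -0.415 to 2.743 for Hspa1b (lowest without busulfan plus AOS replicate 1), and -1.04 to 5.856 for Alb (lowest without busulfan plus AOS replicate 3). Havcr1 was 0.0509 with voom, and Alb was -1.04 without the hepatocyte and the adrenal library. Beyond the causes that a setting's own construction gives, the cause was not tested. With 3 libraries a group, few reads limit what could be called near 1 CPM.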

Other observations

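Some genes of urothelium, which lines the renal pelvis, differed in order between the comparisons with and without AOS. Sprr2a1, a cornified envelope protein with near-identical copies that make its count uncertain, measured 0.138, 0.142 and 0.146 CPM in busulfan plus AOS, against 0.704, 0.685 and 0.484 CPM in AOS. Its busulfan plus AOS levels were under the 0.206 to 0.216 CPM that a gene with 0 reads could still have. Psca, a surface antigen of urothelium, measured 1.32, 0.495 and 0.0728 CPM in busulfan plus AOS, against 2.39, 3.90 and 1.59 CPM in AOS, and the uroplakin Upk1b 1.11, 0.425 and 0.364 CPM against 1.27, 1.64 and 0.899 CPM. The groups overlapped for Upk1b. In the libraries without AOS the order was the other way, with Sprr2a1 at 2.28, 2.87 and 1.08 CPM with busulfan, against 0, 0.145 and 0 CPM in control. Of 10 urothelial genes tested, 7 were lower in busulfan plus AOS than in AOS and 3 were higher, up to a log2 fold change of 2.13. The median of the 10 was -0.58 in busulfan plus AOS against AOS and 2.84 in busulfan against control. The first was -1.53 without busulfan plus AOS replicate 1, and it turned to just above 0 with the filter at 5 CPM in 3 libraries. The interaction of Sprr2a1 had an unadjusted p of 2.4e-05 (edgeR, 0.292 after adjustment), so it did not pass.

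The 13 genes known to be higher in male mouse kidney had a median of -0.37, with 2 of 13 higher and 0 called. Of the 13, 2 were lower without overlap, as were 8.7% of all genes. In busulfan against control their median was -0.32. Of 15 senescence-associated genes 12 were higher, with a median of 0.17, and 4 did not overlap (26.7%, against 8.49% of all genes). Cdkn1a and Gdf15, which the p53 and injury lists hold too, are among them.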
